A study of Mus musculus with 8 samples.

Results

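The nuclear genes for respiratory complex III, cytochrome c, respiratory complex IV and ATP synthase were described in hematopoietic stem cells of mice given granulocyte colony-stimulating factor (G-CSF) or phosphate-buffered saline (PBS). Of 36 listed subunits, 34 had a probe set annotated to them alone, among 19938 genes measured. They were 9 subunits of complex III, cytochrome c itself, 10 subunits of complex IV and 14 of ATP synthase, of which 5 belong to its F1 head and 9 to its stalk and membrane (Fo) part. Where a gene had several probe sets, the brightest on average was taken. The probe sets that name Cox7c also name a second gene and were not analysed here. The listed symbol Atp5f1 was not matched, because its gene stands in the annotation under its later symbol Atp5pb, whose values are given apart.

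The study sorted KSL SLAM cells from mouse bone marrow, a fraction without lineage markers, CD48 and CD41 and with c-Kit, Sca-1 and CD150 that is rich in hematopoietic stem cells. G-CSF, which raises neutrophil output and mobilises stem cells into blood, was injected under the skin at 125 mcg per kg 2 times a day, and the treatment label gives 36 h for both groups. There were 4 G-CSF and 4 PBS samples, described as independent, each a pool from 5 to 10 mice hybridized to 1 MoGene 1.0 ST array. The labels name no strain, age or genotype, and a pool hides the spread between its mice.

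Complex III passes electrons from ubiquinol to cytochrome c, the small carrier that takes them to complex IV, where oxygen is reduced to water. Both complexes pump protons out of the mitochondrial matrix, and ATP synthase lets them flow back through its membrane ring, which turns a shaft inside the catalytic head and drives ATP synthesis. Stem cells at rest in the marrow are known for leaning on glycolysis, with oxidative phosphorylation used more when they are activated. Most of these subunits are encoded in the nucleus, and nuclear respiratory factor 1 (NRF1), ETS factors of the GABP type and YY1 are textbook regulators of such genes.

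To set the expression values beside the genes' regulatory sequence, promoters were searched for letters typical of those regulators. The window ran from 250 bases before to 50 bases after each start in RefSeq (GRCm38.p6), and 27 of the 34 genes matched by symbol, with 30 promoters. The letters searched on both strands were GCGC, any base and TGCGC in a row for NRF1, CCGGAAG for ETS factors and AGATGGCG for YY1. The NRF1 letters stood in 26.7% of the members' promoters and in 4.6% of all 32851 promoters of the same length. The ETS letters stood in 33.3% and 8.86%, and the YY1 letters in 10.0% and 1.95%. A match describes letters and not a bound site.

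The stretches of 250 bases before the start are shown for Cox6a1 (chr5:115348959-115349208), Atp5h (chr11:115419920-115420169), Atp5k (chr5:108434400-108434649) and Atp5g2 (chr15:102671048-102671297), all from the minus strand of GRCm38.p6, 5′ to 3′. They were picked after their values were seen. The first 3 are the genes with both NRF1 and ETS letters in their window, and Atp5g2 had the second largest difference between the groups and an NRF1 match. Capitals mark matches of either strand, which do not overlap here. In Atp5k the ETS letters lie after the start and are not shown.
Cox6a1: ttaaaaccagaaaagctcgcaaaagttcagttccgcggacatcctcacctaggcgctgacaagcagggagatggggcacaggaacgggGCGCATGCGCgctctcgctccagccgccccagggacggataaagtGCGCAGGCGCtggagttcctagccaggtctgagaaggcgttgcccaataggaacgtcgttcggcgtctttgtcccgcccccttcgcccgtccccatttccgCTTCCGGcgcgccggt
Atp5h: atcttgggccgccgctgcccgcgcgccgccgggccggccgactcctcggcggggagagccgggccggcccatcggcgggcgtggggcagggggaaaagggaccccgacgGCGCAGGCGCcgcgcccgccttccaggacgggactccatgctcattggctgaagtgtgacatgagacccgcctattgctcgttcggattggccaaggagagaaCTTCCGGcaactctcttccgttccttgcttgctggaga
Atp5k: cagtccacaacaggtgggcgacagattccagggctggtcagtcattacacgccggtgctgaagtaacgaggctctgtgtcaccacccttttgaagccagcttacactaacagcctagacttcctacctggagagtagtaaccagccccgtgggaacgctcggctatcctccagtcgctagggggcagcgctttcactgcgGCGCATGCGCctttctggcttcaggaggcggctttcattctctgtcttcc
Atp5g2: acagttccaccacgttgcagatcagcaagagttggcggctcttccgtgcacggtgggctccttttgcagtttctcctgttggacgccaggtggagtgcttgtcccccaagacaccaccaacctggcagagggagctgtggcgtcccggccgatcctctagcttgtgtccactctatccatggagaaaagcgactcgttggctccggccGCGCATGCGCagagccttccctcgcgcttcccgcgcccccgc

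With all arrays, these promoters belong to genes at both ends of the range of differences. Atp5h had the lowest difference of all members, -0.08 on the log2 scale, and Atp5g2 had 0.98, each with NRF1 letters. The place of Atp5g2 rests on PBS replicate 3, without which it had 0.31, against a median of 0.38 over all members. Cox4i1, with the largest difference, was among the genes without a matched promoter. The median difference of the 8 genes with NRF1 letters was 0.42, against 0.44 in the 19 without. For the ETS letters it was 0.49 in 10 genes and 0.40 in 17, and for the YY1 letters 0.30 in 3 genes and 0.46 in 24. Cox5a, the member with the lowest p, had none of the 3 sets of letters in its window.

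Facts of the whole set of arrays bear on every value that follows. PBS replicate 3 stood apart, with an interquartile range over all genes of 1.68 against 2.42 to 2.80 on the other arrays, and with correlations to them of 0.883 to 0.903 where the others reached 0.956 to 0.977 among themselves. Kit, the gene of c-Kit, had log2 intensities of 10.24 to 10.94 and Slamf1, the gene of CD150, of 5.94 to 7.24, with overlapping groups. For Sca-1, no probe set named Ly6a alone. Cd48, whose protein the sort leaves out, had 6.66 to 8.95, with the highest value in G-CSF replicate 4, and array files without a detection call cannot show a gene as absent. All intensities are the authors' values in log2, and differences are G-CSF minus PBS.

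No subunit passed the test between the groups, while nearly all had a higher mean after G-CSF. The difference was positive for 33 of 34 genes, with a range of -0.08 to 1.25 and a median of 0.42, and the median of all 19938 genes was -0.07, with 41.7% positive. By limma, 0 of 34 had an adjusted p under 0.05 in either direction, where 0.0953% of all genes were called higher and 0% lower. The lowest adjusted p was 0.212, for Cox5a. At an unadjusted p under 0.05, 10 of 34 were higher and 0 lower, against 6.07% of all genes higher and 2.94% lower. Among the 9969 genes of above-median intensity, 66.5% were positive, with a median of 0.13. Of these 9969, 1095 were higher and 158 lower at an unadjusted p under 0.05 (limma). The share higher was thus larger among bright genes, to which the members belong, than over all genes.

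The count at an unadjusted p depended on single arrays. Without PBS replicate 1 it was 20 of 34, where 7.48% of all genes were higher. It was 6 without PBS replicate 2 (6.37% of all genes), without G-CSF replicate 1 (5.69%), without G-CSF replicate 2 (4.38%) and without G-CSF replicate 4 (4.05%). Without PBS replicate 3 it was 11, where 5.64% of all genes were higher, and 32 of 34 differences were positive (46.9% of all genes) with a median of 0.38. The positive differences were 31 without PBS replicate 2 and 29 without PBS replicate 4 (41.4% of all genes in each). After renewed quantile normalization of all arrays 29 of 34 were positive (85.3%, against 97.1%; 44.2% of all genes), 6 had an unadjusted p under 0.05 (4.32% of all genes), and Uqcrfs1, Cycs, Cox6c, Cox7b and Atp5h were negative. The median was then 0.25, and that of all genes -0.03. With PBS replicate 3 left out before quantile normalization the count was 6 again (4.6% of all genes).

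Single members depended on single arrays as well. With 1 array left out at a time, 24 of 34 differences moved by over 1.5 times at least once, 18 of them without PBS replicate 3, and 6 turned sign. The other 10 did not move that far, and they were Uqcrc1, Uqcrq, Uqcr11, Cox5a, Cox7a2l, Atp5c1, Atp5e, Atp5j, Atp5j2 and Atp5k.

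The values of the G-CSF group lay above all PBS values in 6 members, namely Uqcrc1, Cox4i1, Cox5a, Cox7a2l, Cox8a and Atp5j. Over all genes the groups did not overlap in this direction for 3.37%, and in the other for 2.78%, where no member lay. Among the 9969 genes of above-median intensity, the G-CSF group lay above in 616 and below in 121. PBS replicate 1 was the array that overlapped most often. It lay below all 4 G-CSF values in 9 of 34 members, whereas PBS replicate 2 did so in 27, PBS replicate 3 in 22 and PBS replicate 4 in 28. Over all genes those shares were 19.6%, 22.8%, 28.9% and 21.0%, in the same order. Without PBS replicate 1 the groups did not overlap in 17 members (6.22% of all genes), and without G-CSF replicate 3 in 10 (5.01%).

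**Figure D1:**
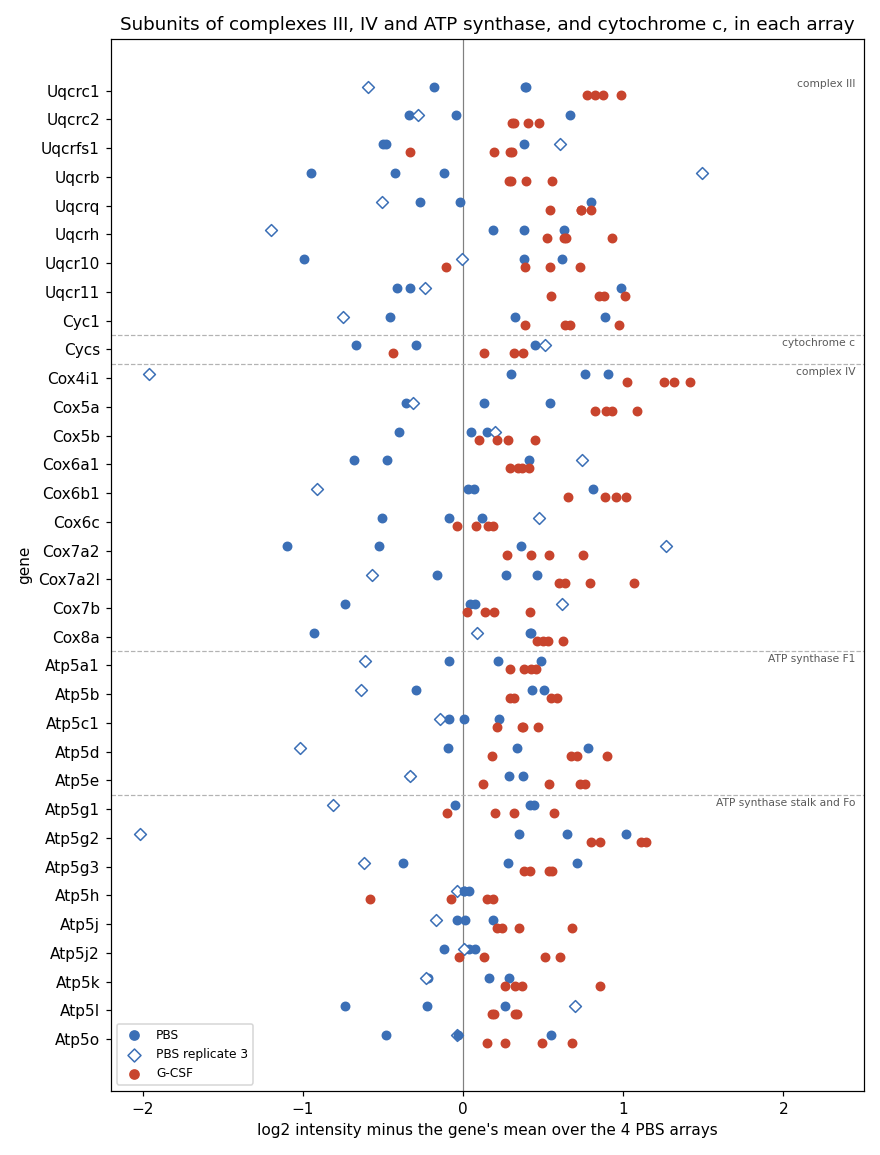
Log2 intensity of each of the 34 genes in each of the 8 arrays, minus that gene's mean over the 4 PBS arrays. Circles are arrays of PBS (blue) or G-CSF (red), open diamonds are PBS replicate 3, and dashed lines part the complexes. The red points form narrow groups to the right of most blue points, and the open diamond is the lowest array in 16 genes and the highest in 8.

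The mean of the 34 genes was 9.73, 9.12, 9.08 and 9.26 in PBS replicates 1 to 4 and 9.69, 9.84, 9.70 and 9.91 in G-CSF replicates 1 to 4. PBS replicate 1 thus lay among the G-CSF arrays. The same array had the highest PBS mean of neutrophil markers, 8.14 against 7.11 to 7.33, of monocyte and macrophage markers, 7.86 against 6.51 to 6.84, of erythroid markers, 8.45 against 7.27 to 7.61, and of megakaryocyte markers, 7.83 against 6.90 to 7.19. For lymphoid markers PBS replicate 3 was highest with 5.83, and PBS replicate 1 had 5.70. The part of these cell types in the subunit values was not tested.

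Positive differences also prevailed in other lists, none of whose genes had an adjusted p under 0.05 with all arrays (limma). Each of 19 neutrophil markers was positive, with a median of 1.38, and the list averaged 10.03, 9.90, 8.13 and 8.78 over G-CSF replicates 1 to 4. Of the 19, 15 were higher at an unadjusted p under 0.05 (6.07% of all genes) and 8 had groups that did not overlap (3.37%). Without G-CSF replicate 3, 4 of them had an adjusted p under 0.05 (limma), where 30 of all 19938 genes were called higher. Without PBS replicate 3 it was 1, where 24 of all genes were. Each of 19 S phase and mitosis genes was positive as well, though 17 were without PBS replicate 4, with a median of 0.65 and a mean of 7.34 to 7.64 in PBS and 7.88 to 8.49 in G-CSF arrays. The sets of 10 monocyte and macrophage, 7 erythroid, 7 megakaryocyte and 11 lymphoid markers had medians of 0.05, -0.25, -0.25 and -0.28. The first 3 depended on single arrays, with 0.51, 0.07 and -0.05 without PBS replicate 1, and 0.54, 0.05 and -0.04 without G-CSF replicate 3. The lymphoid median was -0.15 without PBS replicate 1 and -0.47 without PBS replicate 2. The part of these cells and of cycling in the subunit values was not tested. In pools of sorted cells, a change in which cells are present and a change in RNA per cell cannot be told apart.

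**Figure D2:**
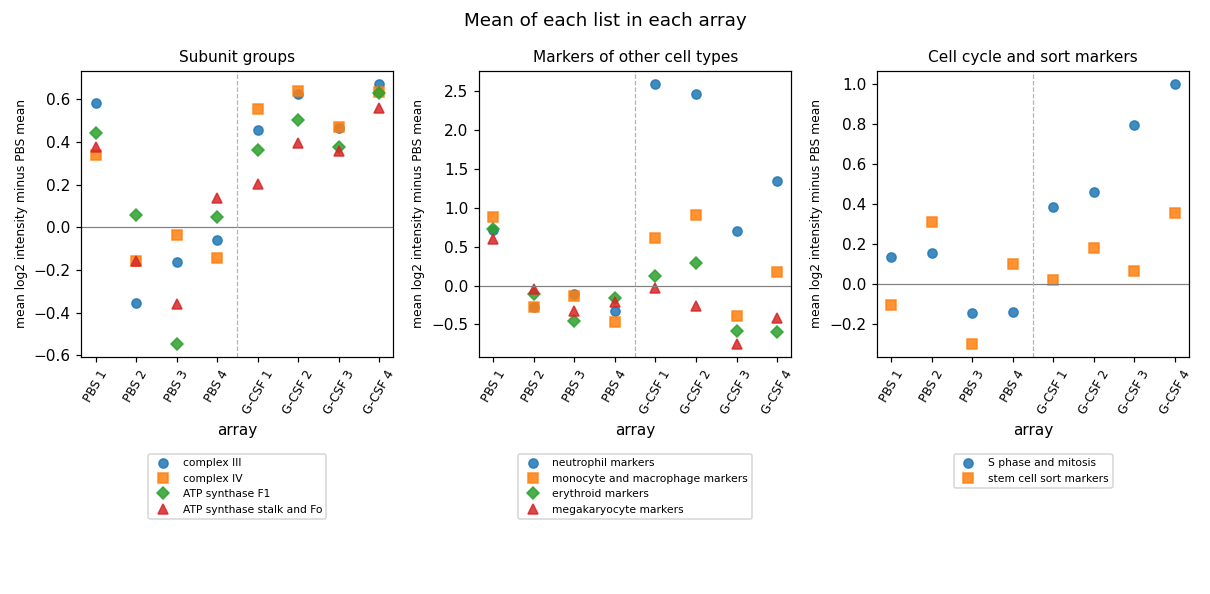
Mean log2 intensity of each list in each array, minus the mean of the 4 PBS arrays. The left panel shows the subunit groups, and the middle panel markers of neutrophils, monocytes and macrophages, erythroid cells and megakaryocytes. The right panel shows cell cycle genes and a list labelled stem cell sort markers. That list mixes Kit and Slamf1 with stem cell genes not used in the sort and with Cd48 and Itga2b (CD41), which the sort leaves out. Its mean does not measure the purity of the sort. PBS 1 lies within the range of the G-CSF arrays for complex III and ATP synthase in the left panel. It is the highest PBS array for the 4 marker lists of the middle panel. G-CSF 1 and 2 are highest for neutrophil markers where G-CSF 3 and 4 are highest for S phase and mitosis.

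Complex III had the highest median difference of the subunit groups, 0.66 over 9 genes, all positive, but 0.41 without PBS replicate 3, where complex IV was highest with 0.58. Of the 9, 3 were higher at an unadjusted p under 0.05 (6.07% of all genes) and 1 had groups that did not overlap (3.37%). Uqcrc1, a core protein of the matrix side, had 7.56, 6.99, 6.58 and 7.56 in PBS replicates 1 to 4 and 8.04, 7.997, 8.16 and 7.94 in G-CSF replicates 1 to 4. Every G-CSF array was higher than every PBS array. The difference was 0.86 ± 0.23 SE, or 1.82-fold, with an adjusted p = 0.303, and 0.67 without PBS replicate 3.

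Uqcr11, a small accessory subunit, had 9.09, 7.69, 7.86 and 7.77 after PBS and 8.65, 8.98, 9.11 and 8.95 after G-CSF. A single PBS array, replicate 1, lay within the G-CSF range. The difference was 0.82 ± 0.29 SE (adjusted p = 0.46), and 1.15 without PBS replicate 1, where the adjusted p = 0.0581 was the lowest of any member under any alternative. That alternative removes the array that overlaps. In a second probe set of Uqcr11, PBS replicate 3 was the lowest array at 5.47 and the difference was 1.09.

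Uqcrq, another small subunit, had a difference of 0.70 (95% confidence interval 0.14 to 1.27). Uqcrh, the hinge protein that helps cytochrome c bind, had 0.68 (-0.07 to 1.43), and 0.28 without PBS replicate 3, the lowest array with 9.03. Cyc1, the cytochrome c1 that hands electrons on to cytochrome c, had 0.66 (-0.04 to 1.37), and 0.41 without PBS replicate 3. The other core protein, Uqcrc2, had 0.37 (-0.12 to 0.87), and 0.60 without PBS replicate 1, the array through which its groups overlapped, at 9.30 against 8.94 to 9.10 after G-CSF. Uqcrfs1, the Rieske iron-sulfur protein that carries electrons inside the complex, had 0.12 (-0.50 to 0.73), with PBS replicate 3 the highest array, and it turned sign without PBS replicate 2 (-0.05).

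Uqcrb shows how far a single array set a value. Its PBS values were 8.44, 8.14, 10.05 and 7.61 and its G-CSF values 8.95, 8.86, 8.85 and 9.12. PBS replicate 3 was the highest of the 8 arrays, while the other 3 PBS arrays lay below all G-CSF arrays. The difference was 0.38 ± 0.42 SE with all arrays and 0.88 ± 0.20 SE without PBS replicate 3 (adjusted p = 0.192), but 0.07 without PBS replicate 4. Its 3 probe sets had differences of 0.34 to 0.38. Uqcr10, another small subunit, had 0.39 (-0.33 to 1.11), and 0.06 without PBS replicate 2, its lowest array.

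For cytochrome c no direction was found. Cycs, which encodes the carrier and whose protein also triggers apoptosis once it leaves the mitochondrion, had 8.80, 8.06, 8.86 and 7.68 after PBS and 8.48, 8.72, 7.91 and 8.67 after G-CSF. All G-CSF values lay inside the PBS range, below PBS replicates 1 and 3 and above PBS replicate 4. The difference was 0.10 ± 0.29 SE (adjusted p = 0.893; 95% confidence interval -0.55 to 0.74). Its 3 probe sets disagreed in sign, with -0.12, 0.10 and 0.30. The one with 0.30 read only 3.93 to 4.96, below the arrays' medians of 5.74 to 5.89, so no direction is taken from it. Whether Cycs differs from the subunits was not tested.

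Complex IV had a median of 0.51 over 10 genes, all positive with the arrays as deposited. Of the 10, 4 were higher at an unadjusted p under 0.05 (6.07% of all genes) and 4 had groups that did not overlap (3.37%). The median was 0.25 without PBS replicate 2, the lowest of the 4 multi-gene groups there, and without PBS replicate 4 8 of 10 were positive. Without PBS replicate 3, 6 of the 10 were higher at an unadjusted p under 0.05 (5.64% of all genes). Cox5a, a matrix-side subunit, had 8.85, 7.95, 7.996 and 8.44 after PBS and 9.20, 9.39, 9.24 and 9.13 after G-CSF. Even PBS replicate 1, the highest PBS array, lay below every G-CSF array. The difference was 0.93 ± 0.22 SE, or 1.91-fold (adjusted p = 0.212), and 0.83 without PBS replicate 3.

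Cox7a2l, known as a factor that joins complexes III and IV in supercomplexes, had 9.73, 10.36, 9.33 and 10.16 after PBS and 10.53, 10.69, 10.49 and 10.96 after G-CSF. The groups did not overlap, and here PBS replicate 1 was not the highest PBS array. The difference was 0.77 ± 0.24 SE (adjusted p = 0.369), and a second probe set of the gene had 0.40. Its relative Cox7a2, the widely expressed form of subunit 7a, had 0.50 ± 0.41 SE, 0.92 ± 0.30 SE without PBS replicate 3, which was the highest array at 9.93, and 0.13 without PBS replicate 2.

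Cox4i1, the widely expressed isoform of subunit 4, had the largest difference of all members. Its PBS values were 9.91, 9.76, 7.04 and 9.31 and its G-CSF values 10.26, 10.32, 10.03 and 10.42. Every G-CSF array was higher than every PBS array, but PBS replicate 3 lay far below the other 3. The difference of 1.25 ± 0.52 SE (adjusted p = 0.523) became 0.60 ± 0.18 SE without that array (adjusted p = 0.355). Cox6b1, which faces the cytochrome c side, had 0.88 with all arrays and 0.57 without PBS replicate 3, with its overlap due to PBS replicate 1.

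The smaller differences of complex IV were those of Cox8a with 0.53 (-0.08 to 1.14) and no overlap, Cox6a1 with 0.35 (-0.29 to 0.99), Cox5b with 0.26 (-0.15 to 0.66), Cox7b with 0.19 (-0.38 to 0.76) and Cox6c with 0.10 (-0.37 to 0.56). Without PBS replicate 2, Cox8a had 0.22 and Cox6a1 0.13, and Cox6a1 had 0.60 without PBS replicate 3. Without PBS replicate 4, Cox5b had 0.13, Cox7b -0.05 and Cox6c -0.07, and without PBS replicate 3 Cox7b had 0.40 and Cox6c 0.26. The small value of Cox6c also depended on the probe set. A second one, at intensities of 10.11 to 11.35, had a difference of 0.33 with all arrays. Second probe sets of Cox5b and Cox7b had 0.30 and 0.19. The intervals of Cox8a and Cox6a1 hold 0 and also the difference of Cox5a. In Cox6a1 the G-CSF values ran only from 11.39 to 11.51, while the PBS values ran from 10.42 to 11.84. After quantile normalization Cox7b and Cox6c had -0.01 and -0.07.

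**Figure D3:**
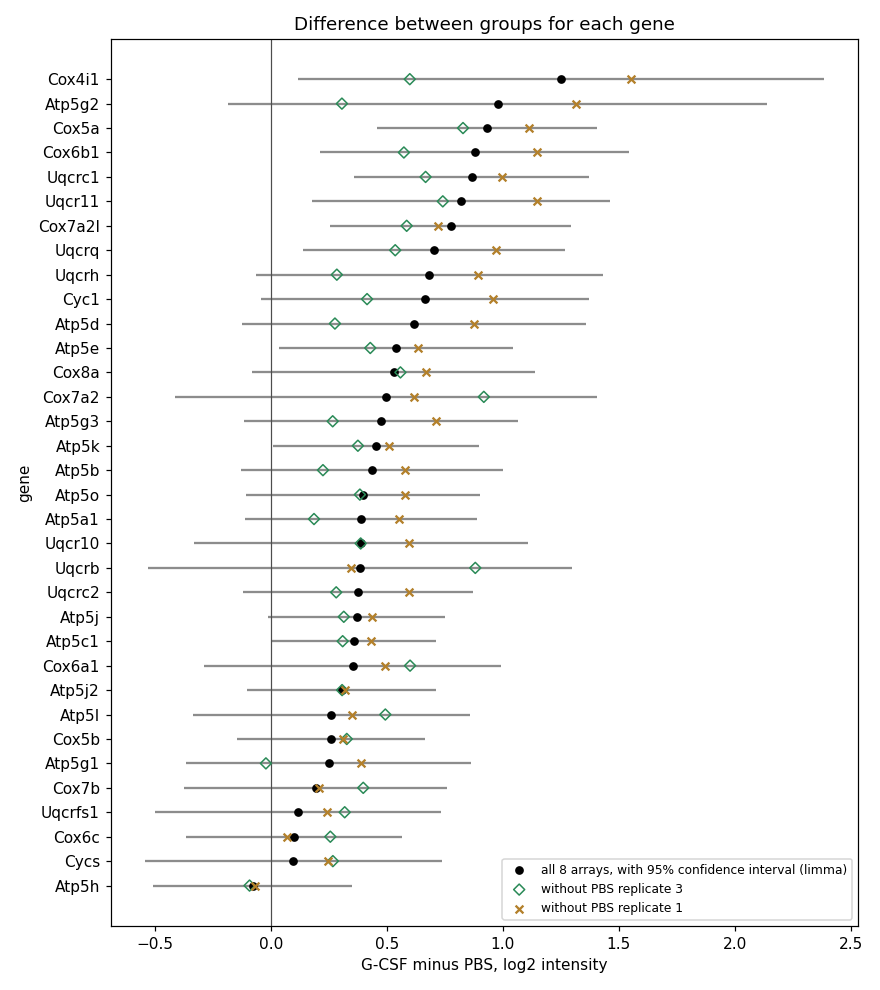
Difference between G-CSF and PBS for each gene on the log2 scale, ordered by size, with the 95% confidence interval from limma over 8 arrays (black), the value without PBS replicate 3 (green diamonds) and without PBS replicate 1 (brown crosses). Most intervals hold 0, 33 of 34 black points lie above 0, and Cox4i1, Atp5g2, Uqcrb and Cox7a2 are among the genes whose value depends most on PBS replicate 3.

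The F1 head of ATP synthase had a median of 0.44 over 5 genes, all positive. Of the 5, 2 were higher at an unadjusted p under 0.05 (6.07% of all genes) and 0 had groups that did not overlap (3.37%). Without PBS replicate 3 the median was 0.28 and none of the 5 had an unadjusted p under 0.05. Atp5e, the epsilon subunit at the foot of the head, had 10.23, 9.61, 9.61 and 10.32 after PBS and 10.48, 10.70, 10.07 and 10.68 after G-CSF. G-CSF replicate 3 lay below PBS replicates 1 and 4. The difference was 0.54 ± 0.23 SE (adjusted p = 0.534).

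Atp5c1, the gamma subunit that turns inside the head, had 10.11, 9.89, 9.74 and 9.80 after PBS and 10.25, 10.26, 10.10 and 10.35 after G-CSF. G-CSF replicate 3 lay just below PBS replicate 1, the overlap of the groups. The difference was 0.36 ± 0.16 SE (adjusted p = 0.551). Atp5a1 and Atp5b, the subunits that form the catalytic ring, had 0.39 (-0.11 to 0.89) and 0.44 (-0.13 to 1.00), and 0.19 and 0.22 without PBS replicate 3. Atp5d, the delta subunit of the shaft, had 0.62 (-0.13 to 1.36), and 0.28 without that array.

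The stalk and membrane part had a median of 0.37 over 9 genes, with 8 positive. Of the 9, 1 was higher at an unadjusted p under 0.05 (6.07% of all genes) and 1 had groups that did not overlap (3.37%). Without PBS replicate 3 the median was 0.31 and 7 were positive. Whether it differed from the other groups was not tested. Atp5k, subunit e of the membrane part, had 9.61, 9.23, 9.21 and 9.73 after PBS and 9.81, 10.31, 9.71 and 9.77 after G-CSF. The difference was 0.45 ± 0.20 SE (adjusted p = 0.546), with G-CSF replicate 2 above the rest and PBS replicate 4 above G-CSF replicate 3.

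Atp5j, the coupling factor 6 of the peripheral stalk, had 9.90, 9.73, 9.54 and 9.68 after PBS and 9.92, 10.07, 9.95 and 10.39 after G-CSF. The groups did not overlap, though PBS replicate 1 and G-CSF replicate 1 were nearly alike. The difference was 0.37 ± 0.17 SE (adjusted p = 0.552). Atp5o, the protein that ties the stalk to the head, had 0.40 (-0.11 to 0.90), with its overlap due to PBS replicate 1, and 0.23 without PBS replicate 2.

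Atp5h, subunit d of the peripheral stalk, was the member with a negative difference. Its PBS values were 9.94, 9.91, 9.86 and 9.91 and its G-CSF values 9.32, 9.83, 10.06 and 10.09. In this probe set the PBS arrays were nearly alike, while the G-CSF arrays lay on both sides of them. The difference was -0.08 ± 0.20 SE (adjusted p = 0.867), and 0.09 without G-CSF replicate 1. Its 3 probe sets had -0.08 to -0.13. In those not used, PBS replicate 4 was the highest of all arrays, at 8.92 against 8.52 to 8.59 in the other PBS arrays, and at 8.52 against 8.11 to 8.18. Atp5pb, subunit b of the same stalk, had 0.26 and 0.27 in its 2 probe sets.

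The ring that protons turn is built from subunit c, which mammals encode in several genes with the same mature protein. Of these, Atp5g2 had 10.78, 10.11, 7.74 and 10.40 after PBS and 10.56, 10.61, 10.90 and 10.87 after G-CSF. PBS replicate 3 was far below all other arrays, and the difference of 0.98 ± 0.53 SE was 0.31 ± 0.19 SE without it. Atp5g3 had 0.47 with all arrays and 0.27 without PBS replicate 3, and Atp5g1 had 0.25 and -0.02. The membrane subunits f (Atp5j2) and g (Atp5l) had 0.30 (-0.10 to 0.71) and 0.26 (-0.34 to 0.86), and the 6 probe sets of Atp5l had 0.22 to 0.32. Atp5l had 0.01 without PBS replicate 2 and 0.49 without PBS replicate 3.

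PBS replicate 3 lay at either end of many members' values. It was the highest of the 8 arrays in Uqcrfs1, Uqcrb, Cycs, Cox6a1, Cox6c, Cox7a2, Cox7b and Atp5l, whose median difference was 0.23, and the lowest in 16 others, whose median was 0.64. Leaving it out must raise the first values and lower the second, and the medians were then 0.45 and 0.31. Over all genes it was the highest array in 42.1% and the lowest in 22.7%. Without it the 34 differences ran from -0.09 to 0.92, against -0.08 to 1.25 with it.

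The members were also more alike between arrays after G-CSF than after PBS. The median SD over 4 arrays was 0.57 in PBS and 0.17 in G-CSF, and 30 of 34 members had the larger SD in PBS, against 73.6% of all genes. Without PBS replicate 3 the PBS median was 0.44 and again 30 of 34 had the larger SD in PBS, whereas this held for 47.4% of all genes and 56.4% of those of above-median intensity. The median SDs of all genes were then 0.20 in PBS and 0.22 in G-CSF. The narrower spread after G-CSF was not particular to these subunits. Complexes I and II had median SDs of 0.42 in PBS, or 0.30 without PBS replicate 3, and 0.22 in G-CSF. Regulators of mitochondrial biogenesis had 0.48, or 0.36, and 0.19. Not every list did so, as neutrophil markers had 0.82 in PBS and 0.92 in G-CSF. The 4 members with the larger SD in G-CSF, with or without PBS replicate 3, were Atp5h, Atp5j, Atp5j2 and Atp5k, all of the stalk and membrane part of ATP synthase. This is a description with no test, PBS replicate 1 with its high values enters it, and an SD of 3 or 4 arrays is imprecise.

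**Figure D4:**
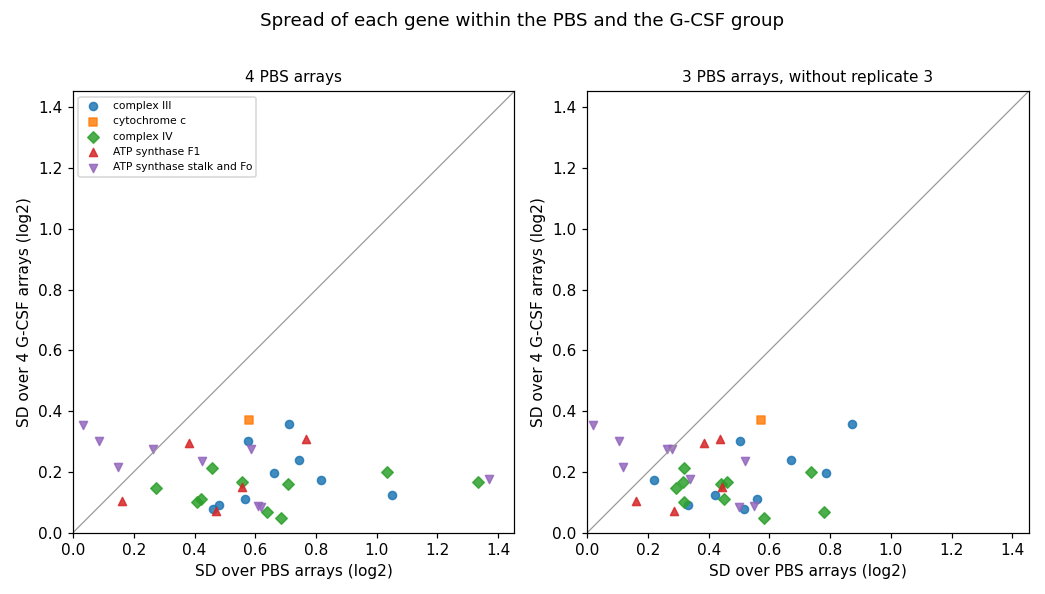
SD of each gene's log2 intensity over the 4 G-CSF arrays against its SD over the PBS arrays, with all 4 PBS arrays on the left and without PBS replicate 3 on the right. Points below the diagonal have the larger SD in PBS. They are 30 of 34 genes in both panels, and the 4 above the diagonal are subunits of the stalk and membrane part of ATP synthase.

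Genes that serve these complexes without being core subunits had smaller medians with all arrays, and none passed the test over all genes. That order depended on single arrays. Without PBS replicate 2, complex IV had 0.247, below regulators of mitochondrial biogenesis (0.264) and cristae and supercomplex factors (0.252). Without PBS replicate 3, the F1 head had 0.28, below cristae and supercomplex factors (0.30) and ATP synthase assembly (0.29). The assembly, cristae, carrier and regulator lists averaged 6.01 to 8.49 in single arrays, and the members 9.08 to 9.91. Positive differences were more frequent among bright genes. Assembly factors of complex IV had a median of 0.22 over 19 genes, with 15 positive. Of the 19, 3 were higher at an unadjusted p under 0.05 (6.07% of all genes). Coa3, which stabilises newly made subunit 1, had 7.55, 6.99, 6.50 and 6.91 after PBS and 7.66, 8.61, 8.35 and 8.28 after G-CSF. Its groups did not overlap, and the difference of 1.24 ± 0.26 SE had an adjusted p = 0.171, below that of any subunit. Surf1, needed for the heme centres of subunit 1, had 1.37 ± 0.40 SE, also without overlap, and 0.90 without PBS replicate 3.

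Assembly factors of complex III had a median of 0.02 over 6 genes, with 3 positive, but 0.20 without PBS replicate 2 and 0.23 without G-CSF replicate 1. The 2 with the lowest p were Uqcc3 with 0.75 ± 0.20 SE, whose groups did not overlap, and Uqcc2 with 1.02 ± 0.44 SE, whose groups did, and 0.53 without PBS replicate 3. The other 4 had differences between -0.10 and 0.06, among them Uqcc1 with 0.06, the known partner of Uqcc2 in making cytochrome b. The 6 assembly factors and inhibitors of ATP synthase had a median of 0.24, or 0.14 without PBS replicate 2 and 0.31 without PBS replicate 1. Among them were Fmc1 at 0.62 ± 0.30 SE and Tmem70 at 0.29 ± 0.22 SE.

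Factors of cristae and supercomplexes had a median of 0.27 over 9 genes, 8 positive. The median was 0.19 without G-CSF replicate 4 and 0.32 without PBS replicate 4. Higd2a, which takes part in building complex IV and supercomplexes, had 0.75 ± 0.29 SE, and Chchd6, a cristae protein, had 0.28 ± 0.16 SE. Carriers of ATP and phosphate and the outer membrane channels had 0.16 over 9 genes, 0.10 without PBS replicate 3 and 0.25 without G-CSF replicate 2, with the ADP/ATP carrier Slc25a5 at 0.46 ± 0.23 SE and the channel Vdac2 at 0.41 ± 0.21 SE. Regulators of mitochondrial biogenesis had 0.14 over 15 genes, 0.04 without PBS replicate 3 and 0.26 without PBS replicate 2. Gabpa, the DNA-binding part of the GABP factor whose letters were searched above, had 0.70 ± 0.34 SE, and 0.32 without PBS replicate 3. The coactivator Ppargc1b had -0.27 ± 0.16 SE, with all G-CSF arrays below all PBS arrays.

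Isoforms known mainly from heart, muscle, testis or lung had a median of -0.26 over 8 genes, and -0.09 without PBS replicate 3. Of the 8, 2 were positive where 41.7% of all genes were. Several of them are dim, and positive differences were rarer among dim genes, since 66.5% of genes of above-median intensity were positive. The count cannot be read as a trait of these isoforms. Cyct, the testis form of cytochrome c, had 3.89 in PBS replicate 3 and 2.34 to 2.69 on the other arrays, far below the arrays' medians of 5.74 to 5.89, so no direction is given for it. Cox7b2, at 3.20 to 4.60, and Cox8b, at 4.72 to 5.18, also lay below those medians on every array. Cox8c, a testis form of subunit 8, had -0.34 ± 0.20 SE at intensities of 4.95 to 5.92, and no direction is given for it either. None of the 8 had an unadjusted p under 0.05 (limma). Of the subunits encoded in mitochondrial DNA, 1 of 6 was measured under these rules, COX2 (mt-Co2), whose difference was -0.06 ± 0.16 SE. The 38 nuclear genes of complexes I and II had a median of 0.36, or 0.24 without PBS replicate 2, with 33 positive. Of the 38, 12 were higher at an unadjusted p under 0.05 (6.07% of all genes) and 12 had groups that did not overlap (3.37%). Whether these 38 genes differed from complexes III, IV and ATP synthase was not tested.

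**Figure D5:**
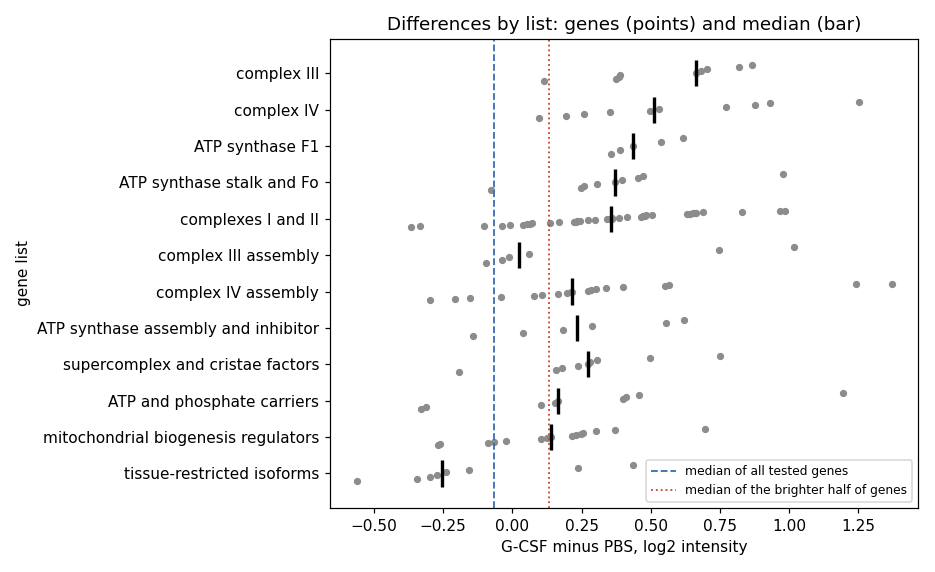
Difference between G-CSF and PBS on the log2 scale for each gene (points) of each list, with the list's median as a bar. The dashed line is the median of all tested genes, -0.07, and the dotted line that of genes of above-median intensity, 0.13. The bars of complex III, complex IV and ATP synthase lie between 0.37 and 0.66, those of the assembly and regulator lists between 0.02 and 0.27, and that of tissue-restricted isoforms at -0.26.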

How the data were processed

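The authors deposited linear intensities, 1 for each probe set in each sample, from 2.15 to 16163; RMA is named in the submitters' processing notes, and the sources used here give neither its options nor its version. Values were turned into log2 with no pseudocount or filter. Of 35556 probe sets, 21789 had 1 gene symbol in the platform annotation, 1621 several and 12146 none; only the first were used. All 19938 genes were fitted with limma 3.58.1 in R 4.3.3 (lmFit, eBayes, 2-sided, Benjamini-Hochberg over all genes, threshold 0.05), and the members' values were read from that fit. The fit was also run on simulated data with planted shifts, with noise drawn alike for every array. Such data hold no array like PBS replicate 3 and cannot show how the fit copes with one. The number of arrays limits the precision.

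The members and lists were chosen with earlier results of these data known. Values in every array are given for the 2 members with the lowest p in each subunit group, for Cycs, for the highest and lowest difference and for probe sets that disagree in sign; other members, and up to 2 genes of each further pathway list by p, are named with their differences. Uqcrb and Atp5g2 are also given in every array, chosen after their values were seen. Lists are described by counts and medians, with no test of a list. Probe sets of genes with near-identical copies may pick up several of them. No pairing of same-numbered samples was seen: their deviations from the group means correlated at -0.03, 0.06, 0.06 and 0.14. So few arrays, with PBS replicate 3 apart from the rest, cannot exclude it.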

Additional observations from a re-analysis of the deposited data

Results flagged for a closer look

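Each of the 34 genes was examined for a far array in each group of 4, 68 groups in all, where about 1 in 20 is picked out by chance. In Uqcr11, PBS replicate 1 (log2 intensity 9.09) lay far above the other PBS arrays, with a gap of 0.876 of the group's range. In Atp5k, G-CSF replicate 2 (10.31) lay far above the other G-CSF arrays, with a gap of 0.8292 of the range.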

How the results depend on the processing

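No member passed an adjusted p of 0.05 under any of 19 alternatives, nor 0.10 under the looser threshold, and the median difference stayed between 0.25 and 0.59. The count of members higher at an unadjusted p under 0.05 was 6 after quantile normalization (4.32% of all genes), 6 when PBS replicate 3 was left out as well (4.6%), and 6 to 20 with single arrays left out. The count of all genes called was 19 as designed, 40 with array weights, 7 after quantile normalization, 52 at a threshold of 0.10, 3 to 31 with single arrays left out and 0 with all probe sets in the fit (limma; 2743 at an unadjusted p under 0.05). Cycs was -0.12 with the probe set of largest spread, -0.044 after quantile normalization and between -0.13 and 0.27 with single arrays left out, and Atp5h was between -0.17 and 0.089, the latter without G-CSF replicate 1; the cause was not tested. With the replicate number as a block, 9 members had an unadjusted p under 0.05 (6.67% of all genes), 0 members and 23 genes were called, and 2 of 8 arrays correlated best with their own number. The block changed no member's call.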
